A study of Mus musculus with 16 samples.

Results

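The cytosolic ribosomal protein genes encode the proteins that, with ribosomal RNA, build the small and the large subunit of the ribosome in the cytosol. They were taken as every row of the gene tables whose symbol is Rpl or Rps followed by digits and at most 1 further letter, plus Rplp0, Rplp1, Rplp2 and Rpsa. Kinases of the Rps6k family and the mitochondrial ribosomal proteins, whose symbols start with Mrpl or Mrps, did not enter. The rule found 81 of 23282 rows, of which 32 name proteins of the small subunit, 46 of the large subunit and 3 of its stalk. The rule itself uses no expression value, though it was set with earlier results of these data known. After the filter on low counts 80 of the 81 remained among 14854 tested rows, and the missing one was Rpl10l, a testis-restricted paralog of Rpl10 with 0 to 2 counts in every library.

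Ribosomal proteins are made in nearly equal numbers, since each ribosome holds about one copy of most of them, and their mRNAs are among the most abundant of any cell. Most of these mRNAs begin with a run of pyrimidines, the 5′ terminal oligopyrimidine or TOP motif, through which mTORC1 and the RNA-binding protein LARP1 set how strongly they are translated. In skin, the highest demand for ribosomes lies in growing basal keratinocytes and hair matrix cells. Some ribosomal proteins have a further role, such as Rpl5, Rpl11 and Rpl23, which bind the p53 ligase Mdm2 when ribosome assembly is disturbed.

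RNA of dorsal skin was sequenced from 16 male wild-type C57BL/6N mice, bought at 3 weeks of age, with 4 mice in each of 4 groups. Cont mice ate normal chow. LowAhR mice ate a diet low in ligands of the aryl hydrocarbon receptor (AhR), a transcription factor activated by dietary and environmental compounds, for 12 weeks, and were also kept on a paper bedding free of such ligands, so that diet and bedding cannot be told apart. LowAhR+AD mice had the same diet and bedding, and the back skin was painted with 1% 2,4-dinitrochlorobenzene (DNCB), a hapten that causes dermatitis, from week 2 of the diet on. LowAhR+AD+BJ mice received in addition Bojungikgi-tang (BJIKT), a herbal decoction, by oral gavage at 1 g/kg per day. No group received DNCB on normal chow, and nothing in the sources used here says that Cont or LowAhR skin was painted with the solvent. Nor do they say that mice without BJIKT were gavaged with water, so that BJIKT and its gavage cannot be told apart.

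The QuantSeq protocol reads about 1 fragment from the end of each transcript, so CPM (counts scaled to a common library size, with TMM factors) compare the number of transcripts between genes without a length term. Libraries held 7080508 to 8773876 counts in Cont and LowAhR and 10614393 to 13467477 in both groups painted with DNCB. LowAhR+AD replicate 1 stood apart, with 12.3% of the tested rows at 0 counts against 0.821% to 8.46% in the other libraries. LowAhR replicate 4 held the highest share of the ribosomal transcript Rn45s, 8.48% of its counts against 0.783% to 4.73% elsewhere. Keratinocyte markers identified the tissue as skin in every library: the 7 basal markers summed to 2730 to 10700 CPM and the 7 suprabasal markers to 1290 to 12900 CPM.

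The start regions of the genes carry a feature that the choice by symbol did not use. The table of RefSeq promoters (GRCm38.p6, 250 bases before to 50 bases after each start) held 60 of the 81 genes. A pyrimidine run written as CCTTTC, with T also allowed as its first or last letter, was searched on the sense strand within 50 bases of the start. It was present in 38 of the 60 genes (63.3%) and in 15.3% of all 27025 genes with a promoter in the table. The letters CCGGAAG, the core bound by ETS-family factors, were present on either strand of the 300 bases in 25 of 60 genes (41.7%) against 9.9% of all genes. The letters AAGATGG, a core of the YY1 motif, were present in 9 of 60 (15%) against 7.3%. Each search was counted on its own, also where matches of different motifs overlapped. The following 30-base stretches, 5′ to 3′ on the sense strand with the pyrimidine run in capitals, are shown because they carry it near the start both in genes that were called in a comparison below and in genes that were not.

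Rplp2: cgtcagcgtcttCCTTTCgccgccggacgc
Rpl27a: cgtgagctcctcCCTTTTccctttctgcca
Rpl35a: ggcttgccttccTCTTTCcgccatcttggc
Rpl34: cacccgccccttCCTTTTcctcttccgggg
Rpl28: ctctcgtgtctcTCTTTCcgtctccggccg
Rps27: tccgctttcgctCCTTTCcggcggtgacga

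In the order shown they lie at chr7:141447638-141447667 (plus strand), chr7:109519185-109519214 (plus), chr16:33056471-33056500 (plus), chr3:130730331-130730360 (minus), chr7:4792954-4792983 (plus) and chr3:90213631-90213660 (minus). Rplp2, Rpl27a, Rpl35a and Rpl34 were called higher in LowAhR+AD than in Cont, and Rpl28 and Rps27 were not. Rpl27a, Rpl35a and Rpl28 were chosen for their sequence after their values were seen. A pyrimidine run was found in 11 of the 20 called genes with a promoter in the table and in 27 of the 40 others, so the run was no more frequent among the called genes. CCGGAAG was found in 11 of the 20 and in 14 of the 40.

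Together the 81 genes took 6.15% to 7.30% of the counts of a Cont library. Their share was 6.56%, 6.73%, 6.15% and 7.30% in the Cont mice, 9.45%, 8.67%, 7.99% and 6.84% in the LowAhR mice, 7.46%, 7.80%, 9.49% and 7.94% in the LowAhR+AD mice and 8.53%, 9.45%, 7.26% and 9.61% in the LowAhR+AD+BJ mice. The mean share was 6.69% ± 0.48 (SD, n = 4) in Cont, 8.24% ± 1.1 in LowAhR, 8.17% ± 0.90 in LowAhR+AD and 8.71% ± 1.08 in LowAhR+AD+BJ. In these raw shares the LowAhR+AD range lay wholly above the Cont range, whereas LowAhR replicate 4 and LowAhR+AD+BJ replicate 3 fell within it. With Rn45s left out of the totals, the share of LowAhR replicate 4 was 7.48% against at most 7.43% in Cont, and that of LowAhR+AD+BJ replicate 3 was 7.38%, still within the Cont range. On the TMM scale the order of overlap differed. The summed CPM of the family was 58910 to 70400 in Cont, 71650 to 95040 in LowAhR and 73450 to 106000 in LowAhR+AD+BJ. In LowAhR+AD it was 64550 to 99370 and overlapped Cont through replicate 1. Which groups separated from Cont therefore depended on the scaling. In bulk skin, fewer cells of a type and less RNA per cell cannot be told apart.

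**Figure D1:**
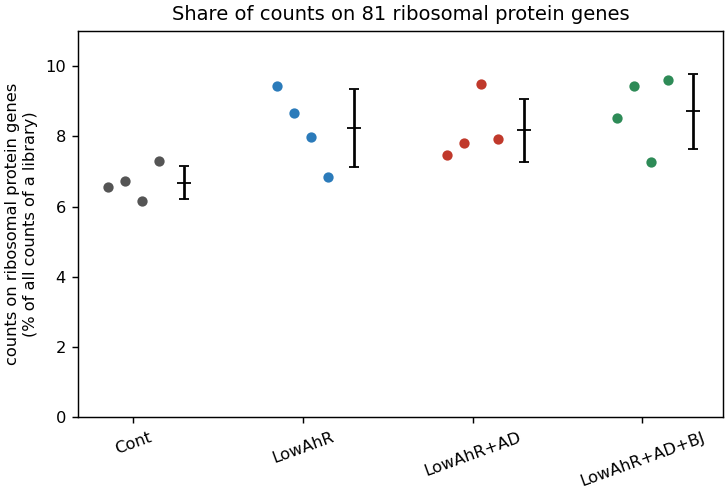
Share of all counts that fell on the 81 ribosomal protein genes (y axis, percent) in each of the 16 libraries (points, coloured by group on the x axis), with the group mean and SD in black. Cont libraries lie between 6.15% and 7.30%, and 10 of the 12 libraries from mice on the low AhR ligand diet lie above them.

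Levels spread widely within the family. Over all 16 libraries the mean level of the 80 tested genes ran from 17.3 CPM for Rps4l, a paralog of Rps4x, to 5950 CPM for Rps20, a small-subunit protein of the head. The median over all 81 genes was 614 CPM, 27 genes exceeded 1000 CPM and 3 of the tested genes stayed under 100 CPM. The 5 highest genes, Rps20, Rplp1 (5380 CPM), Rps9 (3590 CPM), Rps24 (3420 CPM) and Rpl22 (2810 CPM), held 26.5% of the counts of the family. The group mean was lowest in Cont for 61 of the 80 genes, and it was highest in LowAhR+AD+BJ for 51, in LowAhR for 16, in LowAhR+AD for 12 and in Cont for 1.

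Libraries of one group did not shift all members alike. In LowAhR, replicate 4 was the lowest of the 4 mice for 48 genes and the highest for 20. In LowAhR+AD, replicate 1 was the lowest for 57 genes and the highest for 13, and replicate 3 was the highest for 54. LowAhR+AD+BJ replicate 3 was the lowest of its group for 63 genes, and replicate 2 was the highest for 50. The heat map of levels relative to Cont shows this split, with LowAhR replicate 4 dark red at the top and blue near the bottom.

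**Figure D2:**
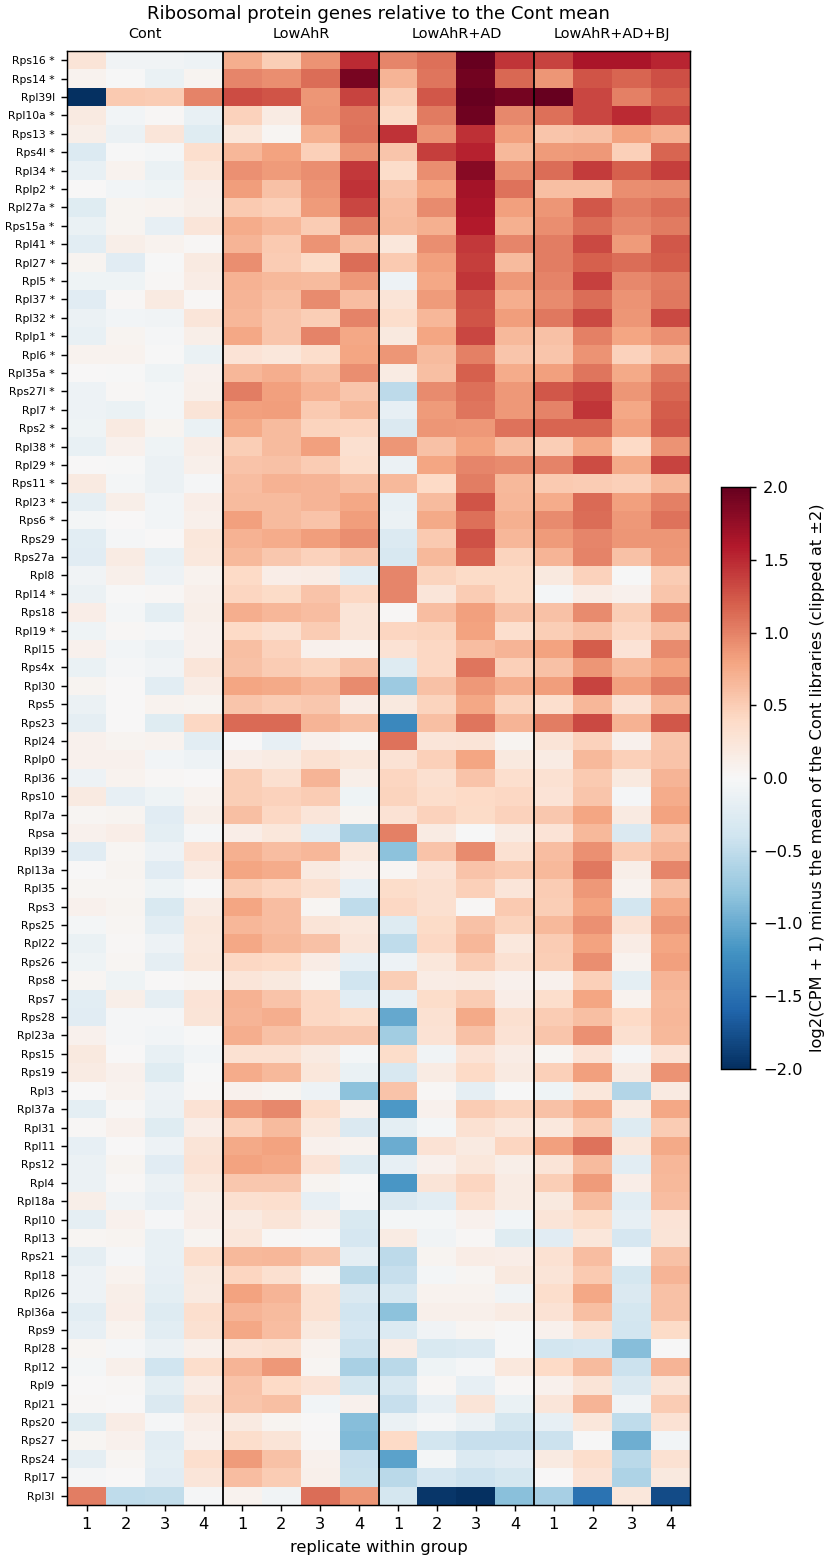
Level of 79 of the 80 tested ribosomal protein genes (rows) in each of the 16 libraries (columns, by group and replicate), as log2(CPM + 1) minus the mean of the 4 Cont libraries, with red above and blue below Cont and the colour clipped at ±2. Rows are ordered by the fold change of LowAhR+AD against Cont, from Rps16 and Rps14 at the top to Rpl3l at the bottom, and an asterisk marks the 27 genes shown that were called in that comparison.

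The comparison of LowAhR with Cont asks what the diet (with its bedding) did on its own. In LowAhR skin 75 of the 80 genes had a higher fitted level than in Cont, with a median log2 fold change of 0.45, against a median of 0.03 over all 14854 tested genes, of which 51.6% lay above 0. The median was 0.49 for the 32 small-subunit genes, 0.45 for the 45 tested large-subunit genes and 0.77 for the 3 stalk genes. No single gene of the family passed the edgeR quasi-likelihood test at an adjusted p under 0.05 in either direction. The same test called 0.0269% of all tested genes higher and 0% lower. At an unadjusted p under 0.05, 41 members lay higher and 0 lower in edgeR, against 7.8% and 5.9% of all genes. DESeq2 called 17 higher and 0 lower, against 4.2% and 1.8% of the genes it gave an adjusted p, and limma voom called 0 members and 0% of all genes either way. With only the 8 libraries compared in the model, edgeR called 21 members higher and 0 lower, against 1.55% and 1.15% of the genes tested there. In 38 members the LowAhR range lay wholly above the Cont range, and in 0 members below it, where 5.68% and 5.63% of all tested genes did so. The count of calls therefore depended on the test, while the median stayed between 0.34 and 0.55 in all alternatives.

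Rps14, a protein of the small-subunit platform, came closest to the threshold. Its levels were 573, 543, 500 and 569 CPM in Cont and 1080, 1040, 1190 and 2040 CPM in LowAhR. All LowAhR mice lay above all Cont mice, and replicate 4 lay far above the others. The log2 fold change was 1.29 ± 0.26 (SE), with an edgeR adjusted p of 0.0596. With a library left out the adjusted p ranged from 0.0426 (without LowAhR replicate 2) to 0.186, and without LowAhR replicate 4 the log2 fold change was 1.01 and the adjusted p 0.146. A two-sided exact permutation test of log2 CPM gave p = 0.0286, the smallest that 4 against 4 mice can give. This value follows from the lack of overlap and adds nothing to it.

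Among the stalk proteins, which recruit the translational GTPases to the ribosome, Rplp2 was at 366, 350, 344 and 401 CPM in Cont and at 651, 545, 683 and 994 CPM in LowAhR. Its dimer partner Rplp1, whose transcript end has a near-identical copy in another gene, was at 3100, 3570, 3400 and 3750 CPM in Cont and at 5870, 5060, 6820 and 5870 CPM in LowAhR. For both genes the groups did not overlap, with log2 fold changes of 0.98 ± 0.24 and 0.77 ± 0.22 and edgeR adjusted p of 0.0806 and 0.123. The base of the stalk, Rplp0, differed less, with a log2 fold change of 0.21 ± 0.18 (edgeR adjusted p = 0.69). Its mean was 957 ± 66.9 CPM (SD, n = 4) in Cont and 1100 ± 57.6 CPM in LowAhR. Its groups did not overlap either, at 886 to 1010 CPM in Cont and 1050 to 1180 CPM in LowAhR. Rplp0 is often used as a reference gene in quantitative PCR.

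Rps16 of the small subunit was at 345, 275, 275 and 270 CPM in Cont and at 479, 410, 543 and 820 CPM in LowAhR. Rpl34 of the large subunit was at 696, 810, 702 and 902 CPM in Cont and at 1460, 1390, 1470 and 2070 CPM in LowAhR. Again no libraries overlapped, and the log2 fold changes were 0.95 ± 0.26 for Rps16 and 1.04 ± 0.25 for Rpl34, with edgeR adjusted p of 0.105 and 0.0806. Leaving LowAhR replicate 4 out, which was the highest for both genes, left neither past the threshold.

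Of the 5 most abundant members, Rps20, Rps9 and Rps24 had log2 fold changes below the median of the family, and Rplp1 and Rpl22 above it. Rps20 averaged 6230 ± 758 CPM in Cont and 5790 ± 1590 CPM in LowAhR, where replicate 4 had 3450 CPM and the others 6260 to 7010 CPM. Its log2 fold change of -0.11 ± 0.23 turned to 0.08 without that library. Rps9, at the mRNA entry site, and Rps24, mutated in Diamond-Blackfan anaemia, had log2 fold changes of 0.35 ± 0.24 and 0.33 ± 0.28, with overlapping groups. Rpl22, an RNA-binding protein of the large subunit, averaged 2170 ± 242 CPM in Cont and 3230 ± 477 CPM in LowAhR, with a log2 fold change of 0.57 ± 0.24 (edgeR adjusted p = 0.27). The groups did not overlap for Rpl22, at 1980 to 2510 CPM in Cont and 2570 to 3700 CPM in LowAhR. Rpsa, the small-subunit protein also known as laminin receptor, was at -0.09 ± 0.26 and at 0.06 without LowAhR replicate 4.

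Of the members that bind Mdm2, Rpl5, Rpl23 and Rpl11 were not called in this comparison. Rpl5 was at 513, 510, 555 and 602 CPM in Cont and at 882, 852, 843 and 993 CPM in LowAhR. Rpl23 was at 1090, 1340, 1190 and 1360 CPM in Cont and at 1920, 1920, 1980 and 2110 CPM in LowAhR. These groups did not overlap, with log2 fold changes of 0.71 ± 0.24 and 0.67 ± 0.23 and edgeR adjusted p of 0.17 and 0.188. Rpl11, at 166, 187, 173 and 221 CPM in Cont and 316, 324, 196 and 195 CPM in LowAhR, overlapped and had a log2 fold change of 0.47 ± 0.27.

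The summed levels of several cell type marker lists differed between LowAhR and Cont too. The 8 adipocyte markers summed to 2930 to 5750 CPM in Cont and 7390 to 12100 CPM in LowAhR, the 7 macrophage markers to 507 to 1050 and 1240 to 1420 CPM, and the 6 neutrophil markers in the tables (of 7 listed) to 19.6 to 38.3 and 50.9 to 84.4 CPM. No marker of these lists was at 0 in all libraries. Of the 8 adipocyte, 7 macrophage and 5 tested neutrophil markers, edgeR called 0 in each list. At an unadjusted p under 0.05 in edgeR there were 6, 1 and 2, where 7.8% of all tested genes lay higher and 5.9% lower. The 7 suprabasal keratinocyte markers summed to less in LowAhR, 5350 to 9370 CPM against 10200 to 12900 CPM, with 0 of them called and a median log2 fold change of -0.31. The 10 hair follicle markers had a median of 3.24, with all 10 above 0, 8 of them at an unadjusted p under 0.05 and 0 called, and their sums overlapped, at 12.6 to 909 CPM in Cont and 96.5 to 8590 CPM in LowAhR. The sums of the 7 basal keratinocyte markers overlapped, at 2730 to 3730 CPM in Cont and 2960 to 3610 CPM in LowAhR, as did the 8 cell cycle genes at 252 to 310 and 267 to 325 CPM. Taken singly, the basal markers had a median log2 fold change of -0.31. Of these 7, 5 lay below 0, 2 had an unadjusted p under 0.05 in edgeR and 0 were called. The part of these cells in the levels of the ribosomal protein genes was not tested.

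**Figure D3:**
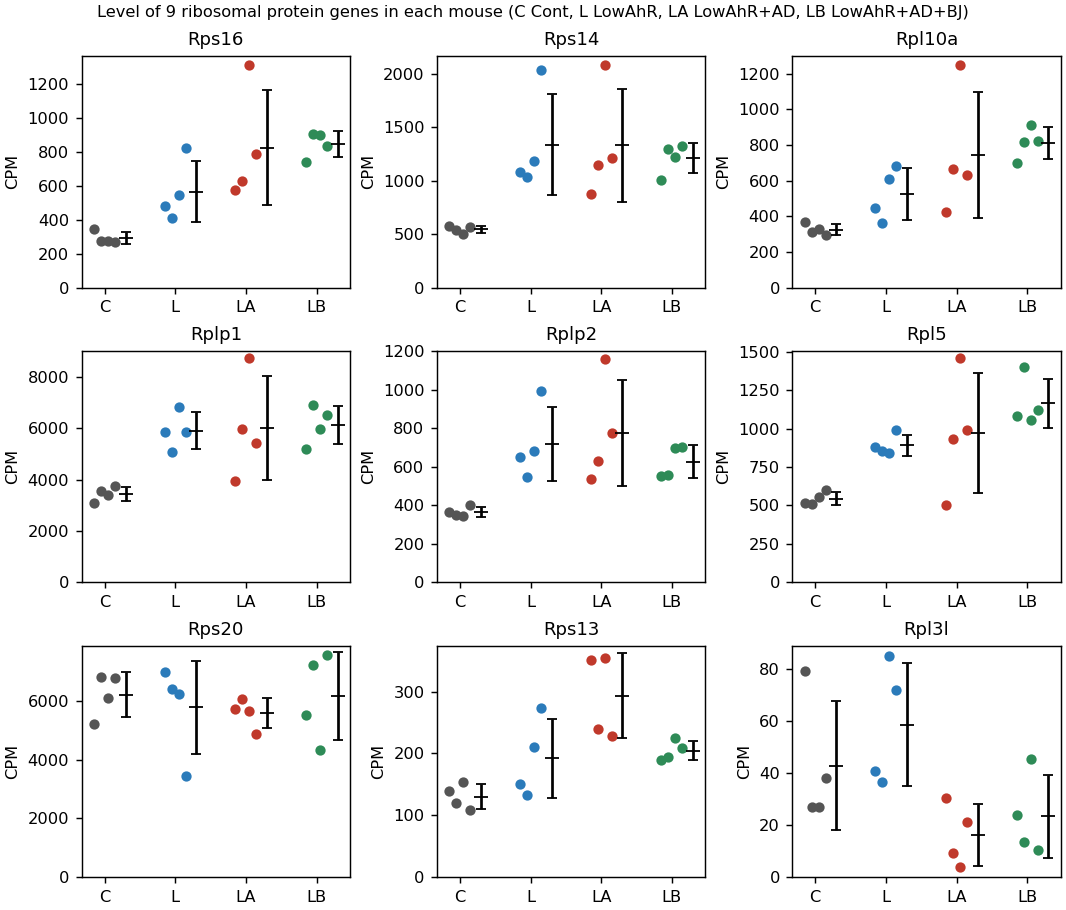
Level in CPM (y axis, from 0) of 9 ribosomal protein genes in each mouse (points) by group (x axis, C Cont, L LowAhR, LA LowAhR+AD, LB LowAhR+AD+BJ), with the group mean and SD in black. Rps14, Rplp1 and Rplp2 lie higher in every mouse on the diet than in any Cont mouse, Rps20 does not, and Rpl3l is lower in every LowAhR+AD mouse than in any LowAhR mouse, while both groups overlap Cont.

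The comparison of LowAhR+AD with LowAhR asks what DNCB added on the diet. Here the family was split evenly, with 40 of 80 genes above and 40 below 0 and a median log2 fold change of -0.0013, against 0.04 over all genes. EdgeR called 0 members in either direction, although it called 6.51% of all tested genes higher and 6.03% lower. At an unadjusted p under 0.05, 4 members lay higher and 4 lower, against 14.9% and 13% of all genes. DESeq2 called 0 members higher and 2 lower, against 8.89% and 9.14%, and limma voom 0 and 1, against 6.15% and 7.93%. Non-overlapping groups were found in 0 members that were higher and in 1 that was lower, Rpl3l, against 8.92% and 9.85% of all genes. Without LowAhR replicate 4, edgeR called 2 members higher, Rps16 and Rps13, and 2 lower, Rps24 and Rpl17, with log2 fold changes of 0.79, 0.84, -0.89 and -0.83. With that library kept they were 0.55 ± 0.25, 0.61 ± 0.23, -0.70 ± 0.28 and -0.66 ± 0.23, with edgeR adjusted p between 0.0659 and 0.16. How many of all genes were called without LowAhR replicate 4 was not counted. Rpl17, a protein that lines the exit tunnel of the large subunit, is named after its values were seen.

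Rpl3l, the paralog that replaces Rpl3 in skeletal and cardiac muscle, had the lowest fold change of the family. Its levels were 79.3, 26.9, 27.1 and 38.2 CPM in Cont, 40.6, 36.7, 85.0 and 72.0 CPM in LowAhR, 30.2, 9.27, 3.73 and 21.3 CPM in LowAhR+AD and 24.0, 13.3, 45.3 and 10.5 CPM in LowAhR+AD+BJ. All LowAhR+AD mice lay below all LowAhR mice, with a log2 fold change of -1.86 ± 0.61 (edgeR adjusted p = 0.0562, 0.0369 without LowAhR+AD replicate 1). The sum of the 10 skeletal muscle markers followed the same order, at 7940 to 14800 CPM in Cont, 11000 to 25300 in LowAhR, 524 to 4260 in LowAhR+AD and 3180 to 11900 in LowAhR+AD+BJ, and its part was not tested. Rpl3 itself averaged 907 ± 44.5, 816 ± 207, 988 ± 241 and 885 ± 208 CPM in the same order of groups, all overlapping.

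Against Cont, LowAhR+AD skin had received both the diet and DNCB. In this comparison 28 of the 80 genes rose and 0 fell by edgeR, where 12.3% of all tested genes were called higher and 9.41% lower. At an unadjusted p under 0.05, 40 members lay higher and 1 lower, against 19.1% and 14.8% of all genes. DESeq2 called 33 members higher and 1 lower, against 14.3% and 11.9%, and limma voom 27 and 0, against 10.2% and 11.4%. The called genes were 10 of the 32 small-subunit genes, 16 of the 45 large-subunit genes and 2 of the 3 stalk genes, with log2 fold changes from 0.52 to 1.5. The median over the 80 genes was 0.43 against 0.05 over all genes, and 16 of the 52 genes not called lay below 0. Without LowAhR+AD replicate 3 the count fell to 17, and without LowAhR+AD replicate 1 it was 37. The share of all genes called in these fits was not counted, so the moves cannot be set against it. In a model of only the 8 libraries the count of members was 17, with 0 lower, against 9.46% and 7.7% of the genes tested there, and Rplp1, Rpl5, Rpl23 and Rps27l were no longer called there (adjusted p of 0.0576 to 0.128). This comparison shares the Cont libraries with that of LowAhR against Cont, so the values of both are given beside each other where a gene is described.

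Rps16 rose most, to 574, 626, 1310 and 785 CPM in LowAhR+AD, all above the 270 to 345 CPM of Cont. The log2 fold change was 1.5 ± 0.26 with an edgeR adjusted p of 0.00052, beside 0.95 for LowAhR against Cont. Rps14 was at 876, 1150, 2090 and 1210 CPM, a rise of 1.29 ± 0.26 (edgeR adjusted p = 0.00178) beside 1.29. For both genes LowAhR+AD replicate 3 was the highest mouse.

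Rpl10a, the protein of the L1 stalk that helps spent tRNA to leave, was at 365, 311, 330 and 292 CPM in Cont, 444, 363, 606 and 680 CPM in LowAhR and 423, 663, 1250 and 633 CPM in LowAhR+AD. Its groups LowAhR and Cont overlapped, with a log2 fold change of 0.69 ± 0.27, and LowAhR+AD lay wholly above Cont with 1.20 ± 0.27 (edgeR adjusted p = 0.00403). Rps13, a small-subunit protein at the subunit interface, was at 139, 119, 153 and 108 CPM in Cont, 151, 132, 210 and 274 CPM in LowAhR and 351, 240, 354 and 228 CPM in LowAhR+AD. It rose by 1.18 ± 0.23 against Cont (edgeR adjusted p = 0.00132), beside 0.57 for LowAhR. A near-identical transcript end of another gene makes the level of Rps13 uncertain.

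Rplp2 was at 538, 630, 1160 and 776 CPM and Rplp1 at 3930, 5970, 8740 and 5410 CPM in LowAhR+AD, in both cases above every Cont mouse. They rose by 1.09 ± 0.24 and 0.80 ± 0.22 (edgeR adjusted p = 0.0031 and 0.014), Rplp1 not without LowAhR+AD replicate 3 (0.56, adjusted p = 0.0626). The mean of Rplp0 was 1300 ± 244 CPM (SD, n = 4), and its difference of 0.45 ± 0.18 on the log2 scale did not pass (edgeR adjusted p = 0.0881, and 0.0479 without replicate 1). Its LowAhR+AD levels of 1090 to 1640 CPM all lay above the 886 to 1010 CPM of Cont. Rpsa was at 1160, 643, 573 and 644 CPM, where only replicate 1 lay clearly above the 503 to 628 CPM of Cont.

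Rpl5 and Rpl23 rose against Cont, by 0.84 ± 0.24 and 0.68 ± 0.23 (edgeR adjusted p = 0.0165 and 0.0407), but LowAhR+AD replicate 1 lay below every Cont mouse for Rpl5, at 506 CPM, and within the range of Cont for Rpl23, at 1120 CPM. Neither call held without LowAhR+AD replicate 3, with log2 fold changes of 0.57 and 0.42 and edgeR adjusted p of 0.0759 and 0.182, and that of Rpl23 was also lost without any 1 of the Cont libraries or of LowAhR+AD replicates 2 and 4, with limma voom (0.0562) and with a replicate block (0.0551). Rpl11 was at 92.4, 228, 211 and 250 CPM and had a log2 fold change of 0.07 ± 0.27. Of the 10 p53 target and ribosome stress genes listed, 0 rose and 1 fell, Sesn1, by 1.01 on the log2 scale (SE 0.23, edgeR adjusted p = 0.00426), with a median of 0.05. The shares of all tested genes were 12.3% called higher and 9.41% called lower.

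Rps27l, a paralog of Rps27 that p53 induces, was at 115, 126, 120 and 133 CPM in Cont, 251, 218, 201 and 182 CPM in LowAhR, 85.9, 238, 267 and 225 CPM in LowAhR+AD and 294, 316, 229 and 275 CPM in LowAhR+AD+BJ. Except for LowAhR+AD replicate 1, every mouse on the diet lay above every Cont mouse. The log2 fold changes against Cont were 0.79 ± 0.25 in LowAhR (edgeR adjusted p = 0.152), 0.73 ± 0.25 in LowAhR+AD (0.0436) and 1.18 ± 0.25 in LowAhR+AD+BJ (0.00301). The call in LowAhR+AD was lost without any 1 of the Cont libraries or of LowAhR+AD replicates 2, 3 and 4, with adjusted p between 0.0684 and 0.132, and with limma voom (0.122) and a replicate block (0.0737). Rps27 itself averaged 424 ± 38.9 CPM in Cont and 426 ± 139, 375 ± 123 and 340 ± 96.4 CPM in the other groups, all overlapping, and a near-identical copy of its transcript end makes its level uncertain.

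The rare paralogs gave small values. Rps4l, at 8.09, 9.95, 9.75 and 12.9 CPM in Cont, was at 15.3, 27.9, 31.2 and 16.3 CPM in LowAhR+AD, a rise of 1.15 ± 0.31 (edgeR adjusted p = 0.0122). In LowAhR it was at 14.4 to 19.5 CPM with a log2 fold change of 0.75 ± 0.31, without overlap. Rpl39l, a paralog of Rpl39 best known from testis, was at 1.28, 12.3, 12.2 and 17.4 CPM in Cont and at 12.0, 20.8, 37.7 and 33.9 CPM in LowAhR+AD, with a log2 fold change of 1.27 ± 0.50 (edgeR adjusted p = 0.0772, and 0.0354 without LowAhR+AD replicate 1).

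DNCB-painted skin also differed from Cont in its marker lists. The 4 activated keratinocyte markers summed to 880 to 1380 CPM in Cont, 526 to 1740 in LowAhR and 11000 to 33000 CPM in LowAhR+AD. The 10 hair follicle markers went from 12.6 to 909 CPM in Cont, through 96.5 to 8590 CPM in LowAhR, to 6110 to 20900 CPM in LowAhR+AD, with 9 of the 10 risen. The 7 basal keratinocyte markers summed to 5610 to 10700 CPM in LowAhR+AD, but they did not move together: 2 rose, Krt14 by 2.27 and Krt5 by 1.33 on the log2 scale, and Col17a1 fell by 1.78. Of the 7, 4 lay above and 3 below 0, and their median log2 fold change against Cont was 0.07. The 6 fibroblast markers fell outside the Cont range, from 27700 to 69500 CPM to 3900 to 22600 CPM. Beside the calls of LowAhR+AD against Cont stand 12.3% of all tested genes called higher and 9.41% called lower. None of these markers was at 0 in all libraries, and their part in the levels of the ribosomal protein genes was not tested.

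LowAhR+AD+BJ against LowAhR+AD asks what BJIKT (with its gavage) changed. The median log2 fold change of the family was 0.21, against -0.00024 over all genes, with 64 of 80 genes above 0. EdgeR called 0 members in either direction, as it called 0% of all tested genes either way, and DESeq2 and limma voom also called 0 members, DESeq2 against 0.0944% of all genes higher and 0.0202% lower and limma voom against 0%. At an unadjusted p under 0.05, 4 members lay higher and 1 lower, against 4.45% and 5.08% of all genes, and the smallest adjusted p in the family was 0.492. The groups did not overlap in 0 members that were higher and in 1 that was lower, against 2.42% and 2.65% of all genes. That member was Rps13, at 190, 194, 225 and 209 CPM with BJIKT, a log2 fold change of -0.52 ± 0.23 (edgeR adjusted p = 0.494). Rpl11 had the largest difference upward, from 92.4, 228, 211 and 250 CPM to 329, 393, 217 and 315 CPM, with 0.68 ± 0.27 (adjusted p = 0.492) and overlapping groups. With a median SE near 0.23 for one gene against Cont, differences of the size of the family's median were not detectable gene by gene with 4 mice a group.

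Against LowAhR, whose libraries also serve the comparison of LowAhR+AD with LowAhR, the LowAhR+AD+BJ libraries had a median log2 fold change of 0.18 over the family and 0.01 over all genes. EdgeR, DESeq2 and limma voom called 0 members in either direction, while edgeR called 3.71% of all genes higher and 3.22% lower, DESeq2 5.58% and 5.88% and limma voom 3.21% and 3.55%. At an unadjusted p under 0.05, 6 members lay higher and 2 lower, against 11.5% and 10.3% of all genes. In 6 members all LowAhR+AD+BJ libraries lay above all LowAhR libraries and in 0 below, against 8.91% and 8.19% of all genes. The lowest adjusted p belonged to Rpl29, a large-subunit protein named after its values were seen, which was at 238, 242, 229 and 205 CPM in LowAhR and 318, 395, 270 and 411 CPM in LowAhR+AD+BJ, with 0.61 ± 0.22 (edgeR adjusted p = 0.0935, 0.0478 without LowAhR+AD+BJ replicate 3). A near-identical transcript end of another gene makes its level uncertain. Rpl10a had 0.63 ± 0.27 (adjusted p = 0.167) without overlap.

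The comparison of LowAhR+AD+BJ with Cont was added after the others had been seen. By edgeR 38 of 80 members rose and 0 fell, where 11.3% of all genes were called higher and 8.55% lower, with 50 members higher and 0 lower at an unadjusted p under 0.05, against 17.6% and 14.4% of all genes. DESeq2 called 42 higher and 0 lower, against 13.2% and 11.1%, and limma voom 37 and 0, against 9.18% and 8.93%. The median of the family was 0.60 against 0.03 over all genes. The called genes were 16 of 32 small-subunit, 20 of 45 large-subunit and 2 of 3 stalk genes, and the count was 25 without LowAhR+AD+BJ replicate 2 or replicate 4. For the fits with a library left out, the share of all genes called was not counted. Rps16 was at 740, 904, 898 and 831 CPM, a rise of 1.54 ± 0.26 (edgeR adjusted p = 0.000454), and Rpl10a was at 696, 817, 912 and 819 CPM, a rise of 1.32 ± 0.27 (0.0021). Both groups lay wholly above Cont.

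Other members followed in that comparison. Rpl34 was at 1670, 2040, 1780 and 2010 CPM and rose by 1.27 ± 0.25 (edgeR adjusted p = 0.00169), beside 1.04 in LowAhR and 1.10 in LowAhR+AD against Cont. Rpl5 and Rpl23 rose by 1.09 ± 0.24 and 0.93 ± 0.23 (0.00338 and 0.0081), and Rpl11 did not pass, with 0.75 ± 0.27 (0.058, and 0.03 without LowAhR+AD+BJ replicate 3). Rplp1 and Rplp2 rose by 0.83 ± 0.22 and 0.78 ± 0.24 (0.0118 and 0.0241), the latter not without any 1 of Cont replicates 1, 2 and 3 or LowAhR+AD+BJ replicate 4, with adjusted p of 0.0554 to 0.0686.

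**Figure D4:**
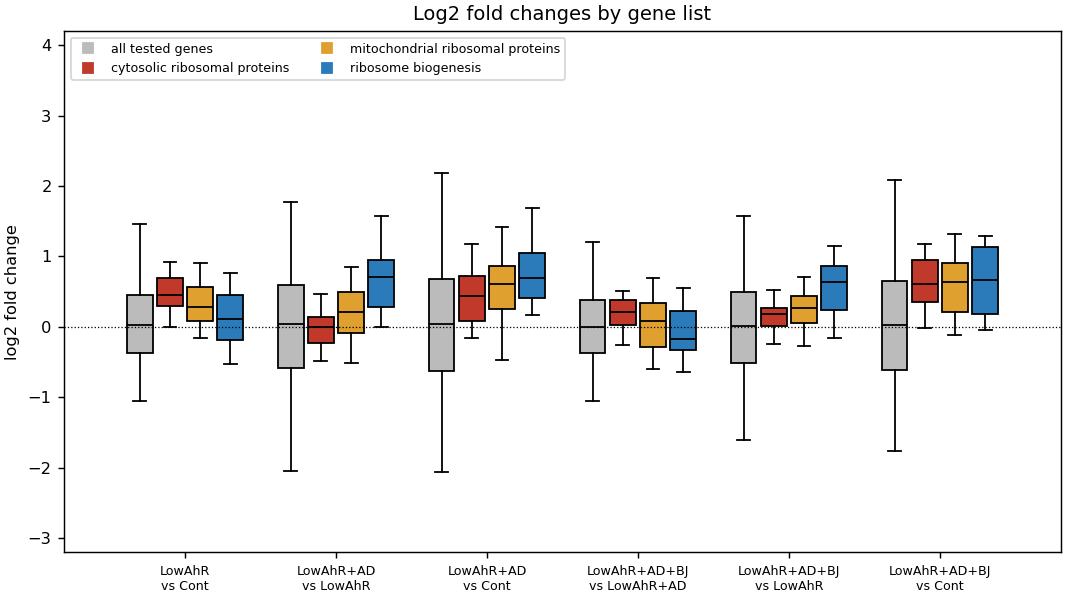
Log2 fold changes (y axis) from edgeR in 6 comparisons (x axis) for all tested genes (grey), cytosolic ribosomal protein genes (red), mitochondrial ribosomal protein genes (yellow) and ribosome biogenesis genes (blue), where boxes span the quartiles with the median as a line and whiskers reach the 5th and 95th percentiles. The medians of the cytosolic genes are 0.45, 0.43 and 0.60 in LowAhR, LowAhR+AD and LowAhR+AD+BJ against Cont, with 5, 16 and 6 of 80 genes below 0. They are 0.21 and 0.18 in LowAhR+AD+BJ against LowAhR+AD and against LowAhR. For LowAhR+AD against LowAhR the cytosolic median is -0.0013, and the ribosome biogenesis genes have a median of 0.71.

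Other genes of the ribosome did not all follow the cytosolic family. Of 11 further cytosolic ribosomal proteins with symbols outside the rule, 7 were in the tables, with medians of 0.44 in LowAhR and 0.63 in LowAhR+AD against Cont. In LowAhR 0 of the 7 were called, and in LowAhR+AD 5 rose and 0 fell, among them Rpl22l1, the paralog of Rpl22, with 1.08 ± 0.34 (edgeR adjusted p = 0.0272). Of the 17 listed non-ribosomal genes with TOP mRNAs, 3 rose and 1 fell in LowAhR+AD against Cont, with a median of 0.18. Among the 3 was the elongation factor subunit Eef1g, which rose by 0.85 ± 0.16 (edgeR adjusted p = 0.000886). For LowAhR+AD against Cont, edgeR called 12.3% of all tested genes higher and 9.41% lower.

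Ribosome biogenesis genes, whose products make and assemble ribosomes in the nucleolus, had a different order of changes. Their median log2 fold change was 0.10 in LowAhR against Cont, with 0 of 34 called, and 0.71 in LowAhR+AD against LowAhR, with 11 risen and 1 fallen. Of all tested genes, edgeR called 0.0269% higher and 0% lower in the former comparison and 6.51% and 6.03% in the latter. In the latter comparison Nat10, which acetylates ribosomal RNA, rose by 1.66 ± 0.42 (edgeR adjusted p = 0.0143), from a low LowAhR level (-1.18 against Cont, the lowest of the list). In the same comparison Bop1, a factor of large-subunit maturation, rose by 1.57 ± 0.37 (0.0095) and Eif6, which keeps the large subunit from joining too early, by 1.21 ± 0.24 (0.00356). Sbds, which helps to release Eif6 from the large subunit, was the 1 that fell, by 1.66 on the log2 scale (SE 0.33, 0.00334). The 8 cell cycle genes moved in the same comparison, from 267 to 325 CPM in LowAhR to 500 to 651 CPM in LowAhR+AD, with 6 risen. Against Cont, 10 of the 34 biogenesis genes rose and 1 fell in LowAhR+AD, and 12 rose and 0 fell in LowAhR+AD+BJ. The shares of all tested genes were 12.3% higher and 9.41% lower in LowAhR+AD and 11.3% and 8.55% in LowAhR+AD+BJ.

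The 77 mitochondrial ribosomal protein genes, which build the ribosome of the mitochondrion, had medians of 0.28 in LowAhR against Cont, 0.21 in LowAhR+AD against LowAhR and 0.61 in LowAhR+AD against Cont. In these comparisons 0, 4 and 28 of the 77 rose, where edgeR called 0.0269%, 6.51% and 12.3% of all tested genes higher. In each of them 0 of the 77 fell, where 0%, 6.03% and 9.41% of all tested genes were called lower. Of the 18 genes of translation control, 1 rose and 1 fell in LowAhR+AD against Cont, the helicase Eif4a1 by 0.94 ± 0.27 upward (edgeR adjusted p = 0.0172) and Tsc2, an inhibitor of mTORC1, by -1.29 ± 0.31 (0.00565). Their median was 0.28, and their counts stand beside the 12.3% of all tested genes called higher and 9.41% called lower. In LowAhR+AD+BJ against LowAhR+AD, 0 genes of any of these lists were called, where edgeR called 0% of all tested genes.

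Many ribosomal protein genes have processed copies elsewhere in the genome, and how reads that match several places were counted is not given in the sources used here. In the GENCODE transcripts of the same build, 80 of the 81 symbols were found, on 19 chromosomes. For 12 of the 80 the last 150 bases matched another gene over at least 145 bases at 97% identity or more, among them Rplp1, Rps13, Rpl29 and Rps27, so that their levels are uncertain. Shorter shared stretches did not count as a match. The search therefore cannot show that the levels of the remaining genes are free of this uncertainty. In LowAhR+AD against Cont, 4 of these 12 and 23 of the other 68 were called, with medians of 0.38 and 0.45.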

How the data were processed

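Total RNA from dorsal skin was made into 16 QuantSeq 3′ libraries, 1 per mouse, and sequenced from a single end. The authors deposited 1 table per library with raw read counts by gene symbol, not normalized. The submitters' processing notes name Bowtie2, bedtools and mm10, with no versions. The treatment of multi-mapped reads is not given in the sources used here. Groups and replicate numbers came from the sample labels. Some single-gene results are not reported here.

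Tests on the deposited counts used edgeR 4.0.16 (R 4.3.3). The filter was filterByExpr (minimum count 10, minimum total 15), TMM factors ranged from 0.892 to 1.16, and robust quasi-likelihood tests were run on all 16 libraries in one model. P-values were adjusted by Benjamini-Hochberg over the 14854 rows that passed, with 0.05 as the threshold for a call, in 6 comparisons. A fold change is the fitted one, and log2 CPM used a prior count of 2. Library totals of 7080508 to 13467477 counts limit precision for rare genes, where 3 counts correspond to 0.229 to 0.406 CPM. Replicates differed beyond sampling noise, with a chi-square per degree of freedom of 16.4 to 285. The fit was tested on simulated data. Ends of transcripts were compared with blastn 2.17.0.

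The members and lists were chosen with earlier results of these data known. Genes were named by a rule: the 5 highest members, the stalk genes and Rpsa, the tissue-restricted paralogs with Rpl3 and Rps27, and the Mdm2-binding members. In each comparison the rule also took the 4 highest fold changes of members called higher, at a mean of at least 10 CPM. For members called lower it took the 4 lowest, but the main edgeR fit called 0 members lower. Called members with small rises were therefore not named by it. Genes named after their values were seen are marked. Rpl34 met this rule only in LowAhR+AD+BJ against Cont, the comparison added after the others had been seen. Alternatives were RLE factors, library totals only, scaling without the ribosomal protein rows, no filter, 10 counts in every library, DESeq2 1.42.0, limma voom (limma 3.58.1), a model of 8 libraries, a replicate block and each library left out in turn.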

Additional observations from a re-analysis of the deposited data

Results flagged for a closer look

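In groups of 4 mice, a library was marked when its gap to the nearest other library as a share of the group's range exceeded Dixon's critical value. This was checked in 104 sets of 4 values of the genes described, of which chance alone would mark about 1 in 20, and 6 were marked. Rps16 was at 345 CPM in Cont replicate 1, against 270 to 275 CPM in the other Cont mice. Rps27 was at 367 CPM in Cont replicate 3, against 435 to 448 CPM. In LowAhR replicate 4, Rps14 was at 2040 CPM against 1040 to 1190 CPM and Rpl34 at 2070 CPM against 1390 to 1470 CPM. In LowAhR+AD replicate 1, Rpsa was at 1160 CPM against 573 to 644 CPM and Rps27 at 558 CPM against 307 to 326 CPM. The last 4 values lie in the library with the highest share of Rn45s and in that with the most rows at 0, and the part of either was not tested.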

How the results depend on the processing

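The median log2 fold change of the family kept its direction in all alternatives for LowAhR, LowAhR+AD and LowAhR+AD+BJ against Cont, at 0.341 to 0.548, 0.344 to 0.462 and 0.452 to 0.709. For LowAhR+AD against LowAhR it ranged from -0.141 to 0.0708, on both sides of 0. Scaling by library totals only gave the lowest of the medians that used all libraries in the 3 comparisons with Cont. The counts of called members moved as follows, and the cause was not tested. The share of all genes called was not counted with a library left out, with 10 counts in every library or with the replicate block. Whether a move there was particular to the family cannot be told. Members higher in LowAhR than in Cont numbered 17 with DESeq2, 21 with only the 8 libraries and 1 with 10 counts in every library, and 0 to 1 with a library left out. Members higher in LowAhR+AD than in Cont numbered 17 with only the 8 libraries and 17 to 37 with a library left out, and members lower 1 with DESeq2 and 0 to 1. Members higher in LowAhR+AD+BJ than in Cont numbered 25 to 42 with a library left out, and higher in LowAhR+AD+BJ than in LowAhR 0 to 2. Members lower in LowAhR+AD than in LowAhR numbered 2 with 10 counts in every library, 2 with DESeq2, 1 with limma voom and 0 to 2 with a library left out, and members higher 0 to 2. With the replicate number as a block 1 member was lower in that comparison, Rpl3l (-1.96, adjusted p = 0.0499). The block changed no other count of members by over 1.5 times, but Rpl23 and Rps27l were no longer called in LowAhR+AD against Cont. The numbers were shared between groups. Correlations of same-numbered deviations ran from -0.0547 to 0.167, and no comparison had all pairs over 0.1. In LowAhR+AD against Cont they were 0.155, -0.0181, 0.0777 and 0.109, and replicates 1, 3 and 4 matched their own number best. Correlations this weak can neither show nor exclude a pairing of the mice, and the main model used none.

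Log2 fold changes near 0 changed sign. For Rps27 in LowAhR against Cont it was -0.1 with library totals only, -0.0626 with limma voom, -0.0195 with the replicate block and -0.128 to 0.215 with a library left out, below 0 without LowAhR replicate 1 or 2 or Cont replicate 3. For Rpl11 in LowAhR+AD against Cont it was -0.00199 with library totals only, -0.0245 with limma voom and -0.0736 to 0.285 with a library left out, below 0 without LowAhR+AD replicate 2 or 4. With a library left out, LowAhR against Cont ranged from -0.208 to 0.0599 for Rpsa, from -0.209 to 0.0785 for Rps20 and from -0.244 to 0.0154 for Rpl3, each above 0 only without LowAhR replicate 4. The call of Rps13 in LowAhR+AD+BJ against Cont was lost with RLE factors (adjusted p = 0.0502), with library totals only (0.138), without a filter (0.0527) and with each of the 8 libraries left out in turn (0.0514 to 0.125). Over all alternatives, 979 of the values of single genes kept their direction and side of the threshold, 41 lost and 38 gained a call, and 13 changed sign. The median SE of a member's log2 fold change was 0.229 for LowAhR+AD against Cont, which limits what 4 mice a group can show.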
